A study of Arabidopsis thaliana with 12 samples.

Results

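The 4 libraries headed replicate 1, 1 from each of the 4 groups of an RNA sequencing experiment on Arabidopsis thaliana root tips, were compared with the 8 other libraries of the same groups. The replicate 1 libraries were identified by their column headings alone, and they make up 4 of 12 libraries. The comparison itself, the gene lists and the tests were chosen with earlier results of these data known. The groups were Col-0 mock, Col-0 treated with BAP, ago10-1 mock and ago10-1 treated with BAP, with 3 libraries each. Col-0 is the wild type. ago10-1 is a T-DNA insertion line in Col-0 that disrupts AGO10, which encodes an ARGONAUTE protein that binds microRNAs. BAP (6-benzylaminopurine) is a synthetic cytokinin, and roots were collected 2 h after it was given. The labels call the groups without BAP mock, whereas the methods of the study describe seedlings sprayed with BAP and others left untreated. Whether the mock seedlings were sprayed is therefore not settled, and spraying and BAP cannot be told apart. All seedlings grew on half-strength MS medium at a light intensity of 150 µE and were used at day 6. According to the labels, 50 mg of root tips of 1 mm length went into a sample, whereas the methods of the study give a longer range for the cut, so that the amount of older root above the meristem is not fixed by these sources. Each library pools many root tips. The sources used here give no hour of collection and no batch, and the replicate number is the only label that the replicate 1 libraries share. Whether the replicate 1 libraries came from separate plants collected together is likewise not given, so that the p-values measure only the spread between these libraries. AGO10 was between 568 and 1051 normalized counts in the Col-0 libraries and between 130 and 187 in the ago10-1 libraries, so that the genotype labels matched in every library.

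Many plant transcripts rise and fall every day under a circadian clock. In Arabidopsis, the MYB factors CCA1 and LHY are most abundant around dawn and repress genes of the evening such as TOC1 and GI. The product of TOC1 represses CCA1 and LHY in turn. Cells of the root tip, on the other hand, form an age gradient along the root. Cells divide in the meristem, then elongate, and higher up the endodermis lays down the lignified Casparian strip and later suberin, while xylem and phloem mature in the stele. Transcripts of these processes therefore mark both the hour and the part of the root that a sample holds.

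To show the sequence around which the clock genes are described, the 250 bases upstream of the annotated transcription start (RefSeq, TAIR10.1) are given for 4 genes, with matches to a G-box (CACGTG) or to an evening element (AAAATATCT, or its reverse complement) in capitals. CCA1 (chr2:19245341-19245590, plus strand) and LHY (chr1:37872-38121, minus strand) each hold 1 G-box, at 193 to 188 and at 80 to 75 bases before the start. TOC1 (chr5:24674713-24674962, plus strand) holds 1 evening element in reverse complement at 151 to 143 bases, and GRP7 (chr2:9266558-9266807, minus strand) holds 3, at 76 to 68, 55 to 47 and 31 to 23 bases.
CCA1: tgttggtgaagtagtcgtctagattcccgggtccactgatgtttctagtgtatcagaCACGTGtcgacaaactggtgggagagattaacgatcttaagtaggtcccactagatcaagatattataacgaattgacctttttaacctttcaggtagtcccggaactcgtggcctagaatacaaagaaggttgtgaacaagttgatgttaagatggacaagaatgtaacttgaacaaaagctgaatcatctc
LHY: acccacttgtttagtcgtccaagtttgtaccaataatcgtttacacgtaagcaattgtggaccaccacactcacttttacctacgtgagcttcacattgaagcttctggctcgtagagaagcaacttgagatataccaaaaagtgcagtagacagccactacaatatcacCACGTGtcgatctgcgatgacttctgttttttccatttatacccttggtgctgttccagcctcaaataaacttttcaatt
TOC1: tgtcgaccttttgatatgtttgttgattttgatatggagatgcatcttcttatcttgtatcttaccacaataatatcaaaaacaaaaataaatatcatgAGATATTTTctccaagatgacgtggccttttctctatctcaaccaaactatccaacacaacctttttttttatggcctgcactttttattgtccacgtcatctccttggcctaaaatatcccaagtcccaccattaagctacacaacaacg
GRP7: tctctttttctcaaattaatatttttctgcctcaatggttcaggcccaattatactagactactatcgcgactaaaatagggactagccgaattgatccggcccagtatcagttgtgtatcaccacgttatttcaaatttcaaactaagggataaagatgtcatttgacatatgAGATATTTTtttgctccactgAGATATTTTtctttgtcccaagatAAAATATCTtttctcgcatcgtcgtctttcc

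On either strand, an evening element was found in 446 of the 19154 upstream stretches of tested genes (2.33%) and a G-box in 1387 (7.24%). Of the clock genes of the morning, 7 of 14 held a G-box and 1 an evening element. Of the clock genes of the afternoon and evening, 5 of 12 held an evening element and 2 a G-box. Upstream stretches of genes that were higher in the replicate 1 libraries held an evening element in 2.31% and a G-box in 7.23% of cases, and those of lower genes in 2.28% and 7.01%. These shares are close to those of all tested genes. A match describes these letters and is not evidence that a factor binds there.

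The table held 32833 genes, and between 19394256 and 34899796 reads per library fell on them (median 23987382.5). In each of the 4 groups the replicate 1 library had the fewest reads, with a mean of 20797024 ± 1583840 (SD, n = 4) against 28551666 ± 5000551 (n = 8), which differed in an exact permutation test within groups (two-sided, p = 0.0247, adjusted p over 4 library measures = 0.0329). With the replicate 1 library of either mock group left out, the exact permutation p was 0.0741. Reads on mitochondrial genes made up 0.0939% to 0.169% of the replicate 1 libraries and 0.0515% to 0.0834% of the others, higher in all 4 groups (exact permutation p = 0.0123, the smallest p that the 81 arrangements can give with 1 arrangement, adjusted p = 0.0329). The share of plastid genes was 0.0222% ± 0.00302 (SD, n = 4) in the replicate 1 libraries and 0.0284% ± 0.00341 (n = 8) in the others (exact permutation p = 0.0247, adjusted p = 0.0329). The ranges overlapped, at 0.0182% to 0.0255% against 0.0222% to 0.0325%, and replicate 1 lay below both others in 3 of 4 groups. In several runs with 1 library left out, the exact permutation p of the plastid share was 0.0556 to 0.111. The values of all genes were scaled for the number of reads by the authors. The part of depth and of the mitochondrial share in the results below was not tested.

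Gene expression was compared as log2(normalized count + 1) with the group as covariate in limma, and genes with an adjusted p under 0.05 are called higher or lower in the replicate 1 libraries. Of 19206 genes with a mean of at least 10, 6446 were called (33.6%), of which 3419 were higher (17.8%) and 3027 lower (15.8%). The replicate 1 library lay above both other libraries in all 4 groups for 2938 genes (15.3%) and below both for 2678 (13.9%). Calls with at least a 2-fold difference were mostly upward, with 1186 higher (6.18%) and 195 lower (1.02%) genes. The difference was not of the same size in the 4 groups. In Col-0 BAP, the median absolute log2 difference between replicate 1 and each of the 2 others was 0.46 and 0.56, against 0.19 between the others. In Col-0 mock, it was 0.20 and 0.27, on either side of the 0.25 between the 2 other libraries. In ago10-1, it was 0.24 and 0.25 against 0.18 in mock, and 0.24 and 0.36 against 0.25 with BAP. Along the first principal component, which held 53.6% of the variance, the replicate 1 libraries stood at -18.4 (Col-0 mock), -91.0 (Col-0 BAP), -38.1 (ago10-1 mock) and -79.0 (ago10-1 BAP), and the 8 others between -1.78 and 68.6. All 4 replicate 1 libraries thus lay on one side of the others, and those with BAP lay farthest out.

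**Figure D1:**
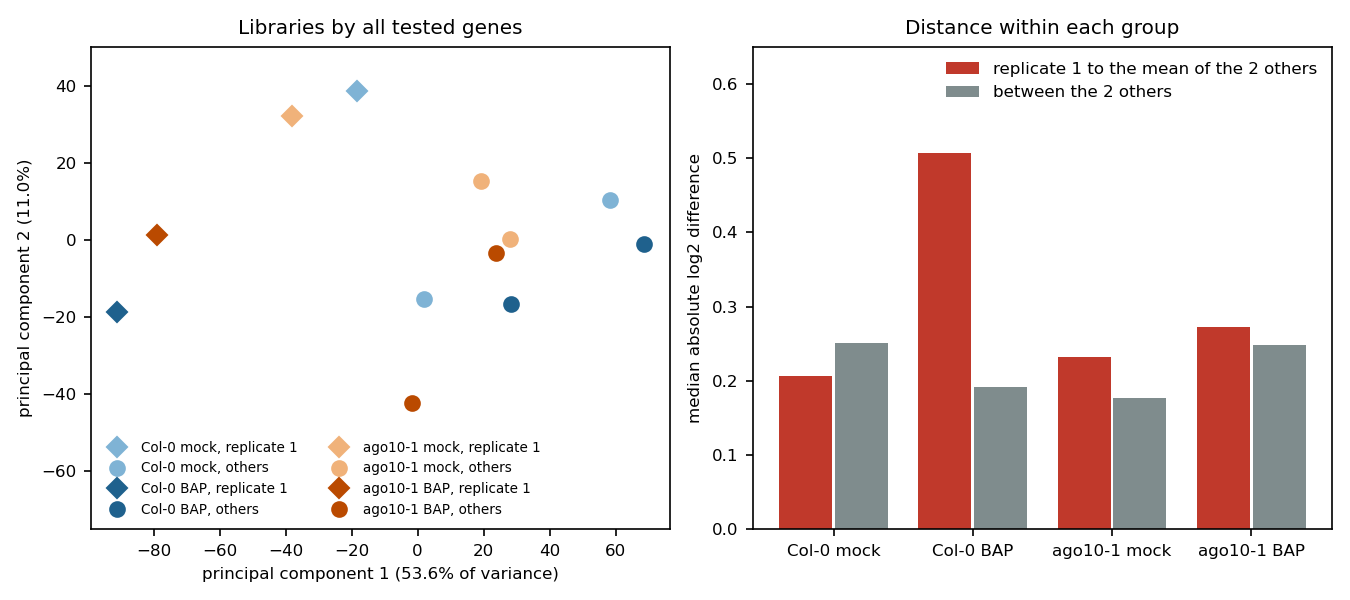
Left, the 12 libraries along the first and second principal components of all 19206 tested genes, with diamonds for replicate 1 and circles for the others. Right, bars give the median absolute log2 difference of the replicate 1 library from the mean of its 2 group mates and between those 2. The red bar stands far above the grey bar in Col-0 BAP (0.51 against 0.19) and below it in Col-0 mock (0.21 against 0.25). A mean of 2 libraries varies less than a single library, so that the 2 bars are not alike. To each single group mate, the distance of replicate 1 in Col-0 mock was 0.20 and 0.27.

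The calls depended on the BAP libraries. Among the 6 mock libraries alone, 83 genes were higher (0.432%) and 73 lower (0.38%), and among the 6 BAP libraries 2824 were higher (14.7%) and 1583 lower (8.24%). Among the 6 ago10-1 libraries, 1298 were higher (6.76%) and 317 lower (1.65%), and among the 6 Col-0 libraries 0 were higher and 1 lower (0.00521%), namely AT5G62210. In the full comparison, 6446 genes were called. This number was 2809 without the Col-0 BAP replicate 1 library (1595 higher and 1214 lower). It was 3575 without the ago10-1 BAP replicate 1 library (1972 higher and 1603 lower). Without both BAP replicate 1 libraries, 111 genes were higher (0.578%) and 130 lower (0.677%). Whether the difference itself varied with treatment was tested as an interaction across all genes, which no gene passed (smallest adjusted p = 0.461 in limma). At an unadjusted p under 0.05, 2012 genes differed between BAP and mock libraries in this interaction (10.5%) and 387 between ago10-1 and Col-0 libraries (2.01%). With the same interaction on counts, edgeR called 0 genes and DESeq2 60 for BAP. Values of each group are therefore given with the genes below.

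Clock genes of the morning were higher in the replicate 1 libraries. Of the 14 tested, 13 were called higher and 0 lower, with a median log2 difference of 1.25, against 17.8% higher and a median of -0.02 over all genes. All 14 had a log2 difference above 0, as had 48% of all genes, and in 12 of 14 the replicate 1 library lay above both others in every group. The summed level of the list was 5695 to 10446 normalized counts in the replicate 1 libraries and 2516 to 3975 in the others. By group, the median log2 difference was 1.00 in Col-0 mock, 1.78 in Col-0 BAP, 1.03 in ago10-1 mock and 1.19 in ago10-1 BAP. The rise of this list was thus seen in mock and in BAP libraries alike, and 5 of the 14 were still called higher among the 6 mock libraries, where 0.432% of all genes were, and 4 without both BAP replicate 1 libraries (0.578% of all genes).

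CCA1 (AT2G46830), whose upstream stretch is shown above, was at 416 normalized counts in Col-0 mock replicate 1, 819 in Col-0 BAP replicate 1, 600 in ago10-1 mock replicate 1 and 805 in ago10-1 BAP replicate 1. In the 8 other libraries CCA1 was at 42.5 to 118 (median 76.0), and the groups did not overlap. The log2 difference was 3.104 ± 0.28 (SE, limma adjusted p = 0.000378), 8.60-fold. Its partner LHY (AT1G01060) was at 763, 1812, 887 and 1515 in the same order and at 55.2 to 197 in the others (median 116). For LHY, the difference was 3.41 ± 0.36 on the log2 scale (limma adjusted p = 0.000664), and again no library of one set reached the other. Both genes passed the test among the mock libraries alone, at 2.61 for CCA1 (limma adjusted p = 0.0296) and 2.74 for LHY (limma adjusted p = 0.0305).

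LNK2 (AT3G54500), a coactivator that works with the RVE factors, had the smallest adjusted p of the list. LNK2 was at 598, 925, 733 and 875 normalized counts in the replicate 1 libraries of Col-0 mock, Col-0 BAP, ago10-1 mock and ago10-1 BAP and at 237 to 338 in the others (median 244), a log2 difference of 1.57 ± 0.12 (limma adjusted p = 0.000118). RVE8 (AT3G09600), a MYB factor that activates evening genes, was at 258, 616, 323 and 488 against 56.0 to 148 (median 99.8), with a difference of 2.07 ± 0.27 (limma adjusted p = 0.0014). The 2 sets of libraries did not overlap for either gene. LNK4 was at 42.5, 54.8, 46.5 and 60.7 against 5.90 to 17.2 (median 11.7), a log2 difference of 2.13 ± 0.28 (limma adjusted p = 0.00155). RVE1 (1.198), RVE4 (0.76), LNK3 (1.31), LNK1 (0.62), RVE6 (0.59) and RVE2 (1.07) were also called higher by these log2 differences. RVE1 links the clock to auxin in Arabidopsis.

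The pseudo-response regulators PRR9 and PRR7 repress CCA1 and LHY and peak one after the other during the morning and midday. PRR9 (AT2G46790) was at 28.4, 82.1, 46.5 and 60.7 in the replicate 1 libraries, in the order Col-0 mock, Col-0 BAP, ago10-1 mock and ago10-1 BAP, and at 4.25 to 31.3 in the others (median 22.3). The log2 difference of PRR9 was 1.52 ± 0.46 (limma adjusted p = 0.0275), and the Col-0 mock replicate 1 value lay within the range of the others. PRR7 was at 158, 207, 301 and 299 against 106 to 203 (median 147), 0.64 ± 0.17 higher on the log2 scale (limma adjusted p = 0.0181). Only the Col-0 mock value of PRR7 lay within the range of the other libraries. Both calls depended on single libraries, and the adjusted p of PRR9 was 0.142 without Col-0 BAP replicate 1 and that of PRR7 between 0.07 and 0.0735 without either ago10-1 replicate 1 library (limma).

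**Figure D2:**
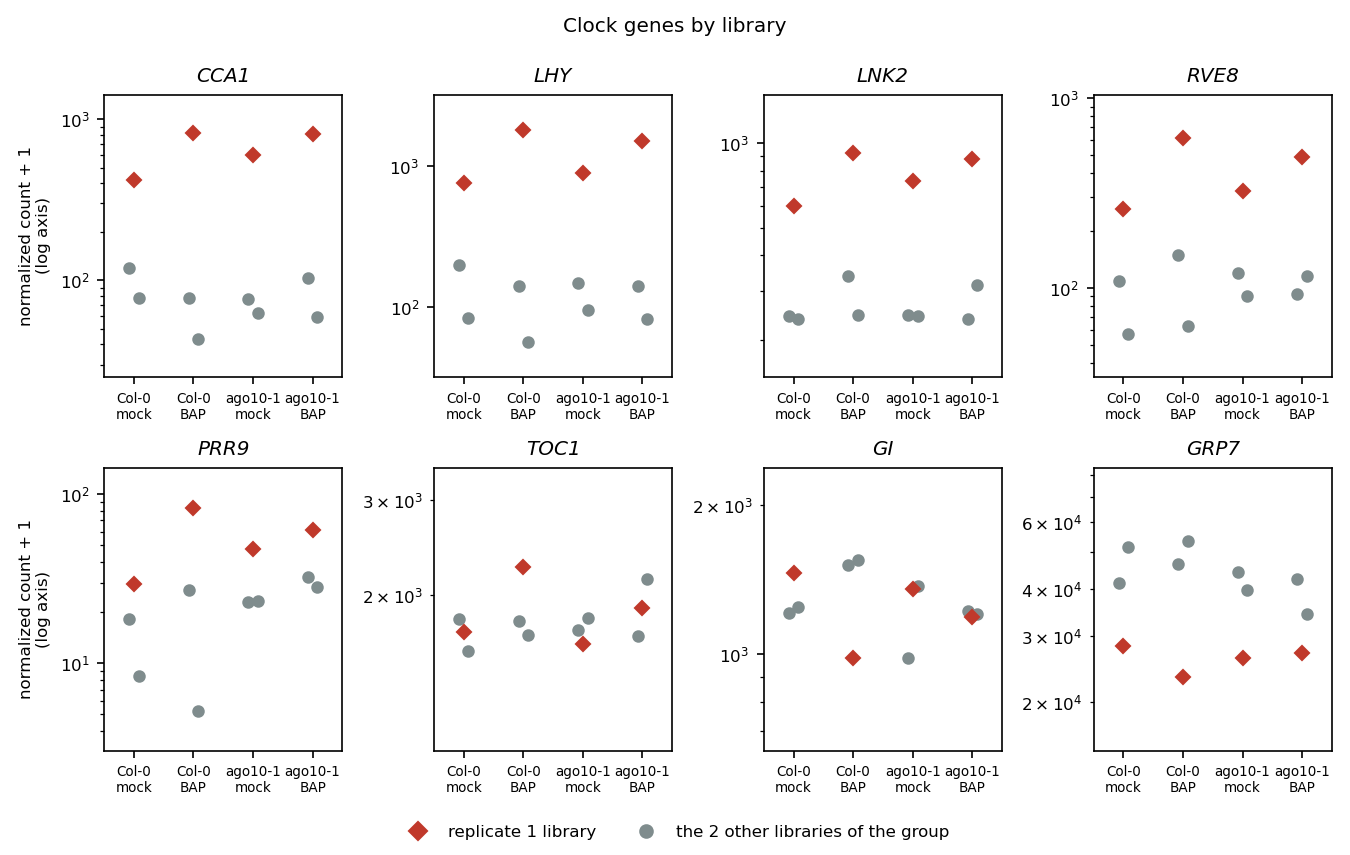
Normalized counts + 1 on a log axis of 8 clock genes by group, with a red diamond for the replicate 1 library and grey circles for the 2 others of the group. CCA1 and LHY stand above all other libraries in the 4 groups, TOC1 and GI overlap with them, and GRP7 stands below (23225 to 28131 against 34348 to 53558).

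Clock genes of the afternoon and evening had smaller differences. Of 12 tested, 3 were called higher and 0 lower, where 17.8% and 15.8% of all genes were, and their median log2 difference was 0.09. TOC1 (AT5G61380) was at 1703, 2249, 1618 and 1892 normalized counts in the replicate 1 libraries of Col-0 mock, Col-0 BAP, ago10-1 mock and ago10-1 BAP and at 1571 to 2136 in the others (median 1753). The 2 sets overlapped, and the 95% interval of the log2 difference of 0.07 ran from -0.14 to 0.27 (limma adjusted p = 0.6). GI (AT1G22770), which stabilises the photoreceptor ZTL in the evening, was at 1458, 980, 1348 and 1188 against 982 to 1544 (median 1231). For GI, the interval of the log2 difference of -0.05 ran from -0.35 to 0.25 (limma adjusted p = 0.799). These values set bounds on a difference in TOC1 and GI that lie well below the difference of CCA1. The evening complex members LUX (0.00) and ELF4 (0.04) had log2 differences near 0 (limma adjusted p = 0.97 and 0.878), and the third member ELF3 was at 1250, 1484, 1253 and 1397 against 1043 to 1292 (median 1133), higher by 0.23 on the log2 scale with overlapping ranges (limma adjusted p = 0.0231, 0.108 without Col-0 BAP replicate 1). ZTL (0.37) and its relative LKP2 (0.42) were the other called genes, and PRR5 (0.23) and PRR3 (-0.27) did not pass the test (limma adjusted p = 0.092 and 0.107).

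Among the output genes of the clock, 9 of 14 tested were higher and 1 lower, against 17.8% and 15.8% of all genes, with a median log2 difference of 0.63. The summed level of the list went the other way without overlap, at 43416 to 48374 normalized counts against 50467 to 70365, to which GRP7 contributed the most counts. GRP7 (AT2G21660), an RNA-binding protein that peaks in the evening and holds 3 evening elements in the stretch shown above, was at 28131, 23225, 26209 and 26909 normalized counts in the replicate 1 libraries of Col-0 mock, Col-0 BAP, ago10-1 mock and ago10-1 BAP. In the others, it was at 34348 to 53558 (median 43244), so that the sets did not overlap, and the log2 difference was -0.75 ± 0.11 (limma adjusted p = 0.00211). GRP8, its close relative, had a difference of -0.29 and did not pass the test (limma adjusted p = 0.068). CDF3 (AT3G47500), one of the DOF factors that repress flowering genes in the morning, was at 170, 268, 259 and 311 against 79.6 to 146 (median 114), 1.099 ± 0.14 higher on the log2 scale (limma adjusted p = 0.00136). CDF2 (0.68), CDF1 (1.00), the catalases CAT2 (0.65) and CAT3 (0.61) and the plastid sigma factor gene SIG5 (0.88) were called higher by these log2 differences. Of this list, 0 genes were called among the mock libraries alone. Without Col-0 BAP replicate 1, 3 rather than 9 were higher, where 1595 rather than 3419 of all 19206 genes were.

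Of the light signalling genes, 2 of 12 were higher and 4 lower, where 17.8% and 15.8% of all genes were, with a median log2 difference of 0.09. ELIP2, an early light-induced plastid protein, was at 93.3, 131, 142 and 225 against 152 to 579 (median 291), a log2 difference of -1.02 ± 0.21 (limma adjusted p = 0.00648). The UV-B response gene RUP1 was at 418, 553, 536 and 512 against 610 to 1017 (median 727), without overlap, and its log2 difference was -0.59 ± 0.13 (limma adjusted p = 0.00895). PIF3, a factor that acts in the dark, had a difference of -0.66. PIF1 (0.79) and BBX31 (1.71) were the 2 genes called higher. Of these, 0 passed the test without the ago10-1 BAP replicate 1 library and 1 without the Col-0 BAP replicate 1 library. Over all genes, 1972 and 1595 were higher in these runs, rather than 3419.

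Genes that respond to darkness or to low sugar were higher in 5 of 11 cases and lower in 0, where 17.8% and 15.8% of all genes were. The median log2 difference was 0.88, and 0.47 without ago10-1 mock replicate 1. TPS8 (AT1G70290), a class II trehalose phosphate synthase gene that rises when sugar is short, was at 1723, 1774, 2201 and 1874 in the replicate 1 libraries of Col-0 mock, Col-0 BAP, ago10-1 mock and ago10-1 BAP and at 501 to 1116 in the others (median 837). TPS8 differed by 1.28 ± 0.14 on the log2 scale (limma adjusted p = 0.000761) and by 1.32 among the mock libraries alone, where it was the only called member. BT2, a scaffold protein gene repressed by sugar, was at 782, 1604, 1117 and 1377 against 133 to 671 (median 379), a log2 difference of 1.87 ± 0.32 (limma adjusted p = 0.00328). Neither gene overlapped between the sets. TPS11 (1.07), TPS10 (1.25) and TPS9 (0.88) made up the remaining calls, so that the called members were trehalose phosphate synthase genes and BT2. Of the 6 others, 3 had differences below 0, namely ASN1 (-1.64, limma adjusted p = 0.0845), SEN1 (-0.52) and BZIP11 (-0.31).

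Many genes of differentiated root tissue were higher in the replicate 1 libraries, with the largest group medians in Col-0 BAP. In bulk samples, more cells of a type and more RNA per cell cannot be told apart. Of the Casparian strip genes, 7 of 10 were higher and 0 lower (median log2 difference 0.86), and of the suberin genes 12 of 15 higher and 0 lower (median 2.29). Xylem genes were higher in 16 of 25 cases (median 0.80) and phloem genes in 10 of 20 (median 0.45), with 0 lower in both. The background was 17.8% higher with a median of -0.02. The group medians of the suberin genes were 0.87 in Col-0 mock, 3.58 in Col-0 BAP, 1.80 in ago10-1 mock and 2.28 in ago10-1 BAP, and those of the Casparian strip genes were 0.74, 1.46, 0.50 and 0.66. In the same order, the medians were 0.58, 1.27, 0.60 and 0.58 for the xylem genes and 0.45, 0.62, 0.31 and 0.49 for the phloem genes, so that xylem genes of ago10-1 did not differ more with BAP than in mock. Among the mock libraries alone, 0 Casparian strip, 0 suberin, 1 xylem and 0 phloem genes were called, where 0.432% of all genes were called higher. Among the BAP libraries, 7 Casparian strip and 12 suberin genes were called higher, against 14.7% of all genes. Without Col-0 BAP replicate 1, the full comparison called 3 Casparian strip, 7 suberin and 4 phloem genes higher. In that run, 1595 rather than 3419 of all 19206 genes were called higher. The phloem count was also 4 without ago10-1 BAP replicate 1 (1972 of all genes). It was 6 without Col-0 BAP replicate 2 (2769), ago10-1 BAP replicate 2 (2667) or ago10-1 mock replicate 1 (2836).

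CASP1 (AT2G36100), a membrane scaffold of the Casparian strip, was at 9391, 16366, 8993 and 13696 normalized counts in the replicate 1 libraries of Col-0 mock, Col-0 BAP, ago10-1 mock and ago10-1 BAP and at 3263 to 7681 in the others (median 5528). The sets did not overlap, and the log2 difference was 1.13 ± 0.25 (limma adjusted p = 0.00782). CASP5 was at 1342, 1680, 1664 and 1919 against 194 to 842 (median 571), 1.70 ± 0.31 higher on the log2 scale (limma adjusted p = 0.00394). SGN1, a kinase of the pathway that surveys the strip, was at 2016, 4009, 2289 and 3609 against 612 to 1659 (median 1229), with a log2 difference of 1.36 ± 0.28 (limma adjusted p = 0.00636). CASP2 (0.87), CASP4 (0.75) and the lignin peroxidase PER64 (0.89) were also called higher. MYB36, the factor that switches this programme on, had a log2 difference of 0.16 (limma adjusted p = 0.52), and the receptor gene SGN3 of 0.43 (limma adjusted p = 0.058). ESB1 had a difference of -0.87 (limma adjusted p = 0.05), but 84.6% of its length is overlapped by another gene model, so that its count is uncertain. The same holds for KCS2 of the suberin list (75.9%) and for LAC17 of the xylem list (97.4%), which is among the genes called higher.

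CYP86A1 (AT5G58860), a fatty acid hydroxylase of suberin synthesis, was at 104, 357, 147 and 297 normalized counts in the replicate 1 libraries of Col-0 mock, Col-0 BAP, ago10-1 mock and ago10-1 BAP and at 0 to 42.6 in the others (median 8.91). The log2 difference was 4.90 ± 0.90 (limma adjusted p = 0.00417), which depends on the pseudocount where values reach 0. GPAT5, which adds acyl chains to glycerol for suberin, was at 30.7, 235, 51.4 and 164 against 0 to 17.39 (median 7.13), 3.94 ± 0.75 higher on the log2 scale (limma adjusted p = 0.0047). The exporter ABCG6 was at 106, 693, 168 and 826 against 1.47 to 67.0 (median 36.5), a difference of 3.60 ± 0.76 (limma adjusted p = 0.0069). For these 3 genes all replicate 1 libraries lay above all others, with the BAP libraries above the mock libraries among replicate 1. CYP86B1 (2.81) and the alcohol-forming reductase FAR4 (3.19) followed the same order. ASFT, the feruloyl transferase, was at 963, 3630, 1117 and 3015 against 546 to 1582 (median 963), 1.04 ± 0.30 higher (limma adjusted p = 0.0236), with both mock replicate 1 values inside the range of the others.

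In the xylem list, XCP1 (AT4G35350), a cysteine protease of dying xylem vessel cells, was at 2373, 3922, 4182 and 5201 normalized counts in the replicate 1 libraries of Col-0 mock, Col-0 BAP, ago10-1 mock and ago10-1 BAP and at 1411 to 3144 in the others (median 1938). Its log2 difference was 0.89 ± 0.12 (limma adjusted p = 0.00173), and only the Col-0 mock replicate 1 value overlapped with the others. XCP2 was at 2815, 4660, 4683 and 5581 against 1322 to 3271 (median 2046), 1.05 ± 0.15 higher (limma adjusted p = 0.00173), and was the xylem gene that passed the test among the mock libraries alone (0.82). FRA8, a glycosyltransferase of secondary wall xylan, was at 905, 1859, 845 and 1510 against 138 to 543 (median 331), a difference of 2.00 ± 0.34 (limma adjusted p = 0.0033). CESA7 (0.80), a cellulose synthase of secondary walls, and the lignin laccase LAC4 (1.22) were also higher. The vessel master regulator VND7 had a log2 difference of 0.59. Of the phloem genes, the receptor kinase BAM3 of early sieve cells was at 1073, 1333, 918 and 1364 against 617 to 836 (median 686), 0.73 ± 0.08 higher (limma adjusted p = 0.000761). CVP2, a phosphatase of early phloem, was at 293, 381, 277 and 373 against 155 to 216 (median 186), 0.82 ± 0.14 higher (limma adjusted p = 0.00307). Neither BAM3 nor CVP2, which mark young phloem, overlapped between the sets. The lectin PP2-A1 of companion cells (1.396) was higher as well.

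**Figure D3:**
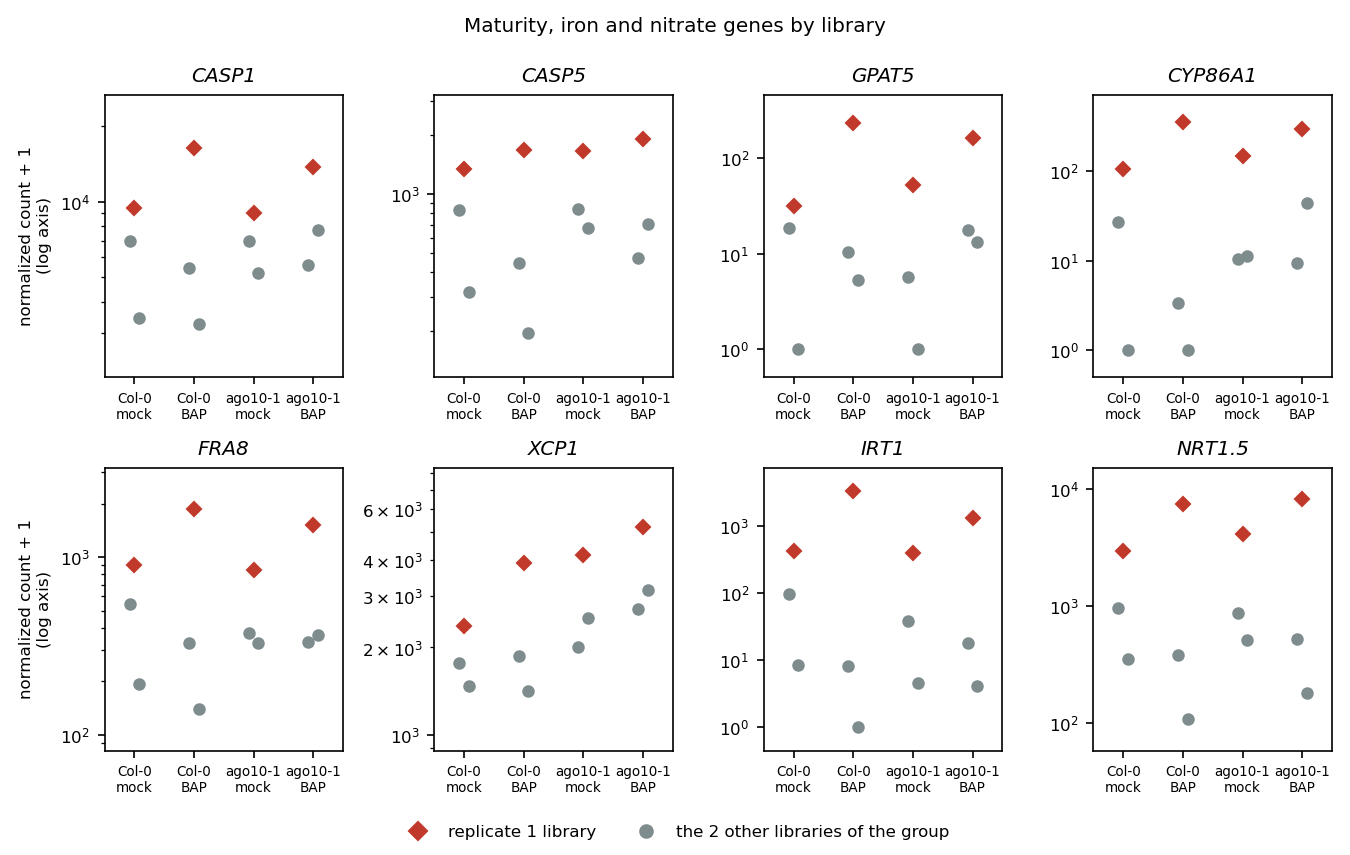
Normalized counts + 1 on a log axis of Casparian strip, suberin, xylem, iron and nitrate genes by group, with a red diamond for the replicate 1 library and grey circles for the 2 others. The diamonds of GPAT5 and CYP86A1 stand higher with BAP (164 to 357) than in mock (30.7 to 147), and above all circles in the 4 groups.

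Genes of dividing cells leaned lower as a list, by small differences that varied among the groups. Of 28 tested, 0 were higher and 6 lower, against 17.8% and 15.8% of all genes, with a median log2 difference of -0.23. A log2 difference above 0 was found in 7 of the 28, against 48% of all genes. The group medians were -0.03 in Col-0 mock, -0.50 in Col-0 BAP, -0.13 in ago10-1 mock and -0.14 in ago10-1 BAP. When single libraries were left out, the count of lower genes ranged from 1 without Col-0 BAP replicate 1 to 13 without Col-0 mock library A. Over all genes, 1214 and 3636 were lower in these runs. Of the list, 0 were called among the mock libraries alone. CDKB1;1, a kinase of the cell cycle, was at 652, 512, 641 and 681 in the replicate 1 libraries of Col-0 mock, Col-0 BAP, ago10-1 mock and ago10-1 BAP against 741 to 922 (median 871), a log2 difference of -0.46 ± 0.10 (limma adjusted p = 0.00717). The mitotic cyclin CYCB1;1 was at 383, 293, 281 and 333 against 340 to 550 (median 429), with a difference of -0.47 ± 0.12 (limma adjusted p = 0.0163), and the replication clamp PCNA1 had a difference of -0.45. Both lost the call without Col-0 BAP replicate 1 (limma adjusted p = 0.0756 and 0.0609).

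Stem cell niche and meristem genes were not shifted as a list, with 1 of 13 higher and 3 lower, against 17.8% and 15.8% of all genes, and a median log2 difference of -0.10. RGF3, a peptide that maintains the meristem, was at 346, 315, 344 and 428 in the replicate 1 libraries of Col-0 mock, Col-0 BAP, ago10-1 mock and ago10-1 BAP and at 470 to 763 in the others (median 507), a difference of -0.61 ± 0.08 (limma adjusted p = 0.00176). WOX5, which marks the quiescent centre, went the other way at 16.5, 54.8, 34.3 and 49.4 against 8.62 to 27.4 (median 14.6), 1.21 ± 0.31 higher on the log2 scale (limma adjusted p = 0.0145, and 0.0726 without Col-0 BAP replicate 1). PLT1, a factor that sets meristem size, was at 546, 357, 458 and 425 against 453 to 741 (median 603), a difference of -0.43 ± 0.13 (limma adjusted p = 0.0314), a call that was lost without any 1 of 8 libraries (limma adjusted p = 0.0537 to 0.146). BBM, a relative of PLT1, had a difference of -0.36 and did not pass the test (limma adjusted p = 0.0599). Counts of this list changed with single libraries, up to 6 lower without Col-0 mock replicate 1 and down to 1 without Col-0 BAP replicate 1. Over all genes, 2834 and 1214 were lower in these runs.

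Of the elongation genes, 2 of 12 were higher and 7 lower (median log2 difference -0.32), where 17.8% and 15.8% of all genes were. Their summed level went the other way, at 79518 to 108328 normalized counts (median 89642) against 67167 to 87740 (median 73016), so that the list did not move as a whole. EXPA1, an expansin that loosens cell walls, was at 418, 452, 732 and 712 in the replicate 1 libraries of Col-0 mock, Col-0 BAP, ago10-1 mock and ago10-1 BAP and at 916 to 1412 in the others (median 1049), a difference of -0.98 ± 0.13 (limma adjusted p = 0.00166). EXPA10 was at 33.1, 32.9, 31.8 and 42.7 against 44.8 to 119 (median 83.5), with a difference of -1.19 ± 0.22 (limma adjusted p = 0.00394). Neither expansin overlapped between the sets. EXPA14 was at 2629, 2011, 2201 and 2241 against 2830 to 4213 (median 3043), a difference of -0.53 ± 0.07 (limma adjusted p = 0.00156). The proton pump AHA2, in contrast, was 0.57 higher on the log2 scale, but 0 of the list were called higher without Col-0 BAP replicate 1. Over all genes, 1595 rather than 3419 were higher in that run.

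Root hair genes differed in direction among themselves and among the groups. Of 25 tested, 2 were higher and 5 lower, against 17.8% and 15.8% of all genes, and the group medians were -0.52 in Col-0 mock, 0.66 in Col-0 BAP, -0.19 in ago10-1 mock and -0.29 in ago10-1 BAP. RHD6, the factor that starts hair formation, was at 622, 580, 644 and 600 against 745 to 1025 (median 863), a log2 difference of -0.51 ± 0.09 (limma adjusted p = 0.00395). RSL2, a factor of later hair growth, was at 1174, 2176, 1007 and 1254 against 268 to 798 (median 483), 1.49 ± 0.28 higher (limma adjusted p = 0.00442). The early gene was thus lower and the later one higher, both without overlap between the sets. The wall protein gene PRP1 of growing hairs had a difference of -1.30. The 5 lower genes became 3 without Col-0 mock replicate 1, ago10-1 BAP replicate 1, ago10-1 mock replicate 3 or Col-0 mock library B. Over all genes, 2834, 1603, 2521 and 2084 were lower in these runs, rather than 3027.

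Root cap genes were not shifted in a common direction, with 1 of 9 higher and 1 lower, where 17.8% and 15.8% of all genes were. Their summed level was 7258 to 9433 normalized counts in the replicate 1 libraries, inside the range of 2377 to 11510 of the others. The nuclease BFN1 of dying cap cells was higher by 1.12 on the log2 scale (limma adjusted p = 0.0312), the cap stem cell factor FEZ had a difference of -0.72 (limma adjusted p = 0.038), and the cap factor SMB of -0.29 (limma adjusted p = 0.0935). The calls of BFN1 and FEZ were lost without any 1 of 6 and 9 libraries, respectively. RCPG, a pectin-degrading enzyme of the cap, was at 70.3 in ago10-1 mock replicate 2, below every other library.

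The largest difference in the upward direction was that of CYP82C4, an oxidase that makes iron-binding coumarins in roots. CYP82C4 (AT4G31940) was at 47.3, 684, 48.9 and 217 normalized counts in the replicate 1 libraries of Col-0 mock, Col-0 BAP, ago10-1 mock and ago10-1 BAP and at 0 to 8.70 in the others (median 0), a log2 difference of 6.70 ± 0.85 (limma adjusted p = 0.00136) that depends on the pseudocount. It was followed by IRT1, the main iron transporter of the root epidermis, at 421, 3220, 387 and 1281 against 0 to 95.7 (median 7.26), 6.55 ± 1.08 higher (limma adjusted p = 0.00291). The 10 largest upward genes were chosen among those above both other libraries in each group, so that this order is no finding, and both genes were highest in Col-0 BAP replicate 1. MYB48 was at 194, 517, 374 and 597 against 0 to 52.2 (median 18.21), with a difference of 4.54 ± 0.86 (limma adjusted p = 0.00469). The oxidase gene CYP71B2 was at 760, 2686, 854 and 2113 against 17.0 to 284 (median 58.5), 4.38 ± 0.64 higher (limma adjusted p = 0.00203). AT3G05160, a transporter of the major facilitator family, was at 66.2, 267, 135 and 272 against 3.19 to 17.38 (median 6.93), 4.21 ± 0.50 higher (limma adjusted p = 0.00104). AT3G05160 was the only 1 of the 10 largest upward genes that passed the test among the mock libraries alone (2.91). The others of the 10 were CYP86A1, the lipase-like AT2G23540 (4.44), AT5G44550 (4.32), the glycine-rich protein gene GRP9 (4.18) and the latex protein-like gene MLP328 (4.13).

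IRT1 and CYP82C4 led to a list of iron uptake genes, and NRT1.5 to a list of nitrate and ammonium transporters, both drawn up after these values had been seen. Of the iron genes, 7 of 14 were higher and 3 lower, where 17.8% and 15.8% of all genes were, and the 7 include IRT1 and CYP82C4, so that the count supports nothing. FIT, the factor that switches on iron uptake, was at 978, 1240, 967 and 1173 in the replicate 1 libraries of Col-0 mock, Col-0 BAP, ago10-1 mock and ago10-1 BAP and at 432 to 684 in the others (median 527), 1.03 ± 0.10 higher on the log2 scale (limma adjusted p = 0.000463). Its partner bHLH39 (3.64) and the iron reductase FRO2 (1.93) were higher too. The 3 lower genes were the iron stores FER3 (-0.62), FER4 (-0.55) and FER1 (-0.53), ferritins that fall when iron is short, of which FER1 shares 63.5% of its length with another gene model.

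Of the transporter genes, 5 of 7 were higher and 0 lower, a count that includes NRT1.5 and likewise supports nothing (17.8% of all genes were higher). NRT1.5 and NRT1.2 were also higher among the mock libraries alone, and NPF7.2, a nitrate transporter with a difference of -0.60 (limma adjusted p = 0.0843), lay below both others in all 4 groups. NRT1.5, which loads nitrate into the xylem, was at 2949, 7411, 4146 and 8111 normalized counts against 106 to 962 (median 442), 3.73 ± 0.54 higher on the log2 scale (limma adjusted p = 0.00197). NRT1.1, the nitrate sensor and transporter, was at 7689, 13624, 7677 and 9764 against 3007 to 5275 (median 3849), a difference of 1.27. NRT1.2 (1.54) and the ammonium transporters AMT1;2 (2.67) and AMT1;3 (1.03) were likewise above all other libraries in each group.

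The largest downward differences were found in 2 genes of the same annotated type. AT5G62210, annotated as an embryo-specific protein 3, was at 17.7, 52.0, 9.79 and 45.0 normalized counts in the replicate 1 libraries of Col-0 mock, Col-0 BAP, ago10-1 mock and ago10-1 BAP and at 209 to 938 in the others (median 538). Its log2 difference was -4.22 ± 0.17 with the smallest adjusted p of all genes (limma, 1.61e-06). ATS3, the embryo-specific protein 3 gene itself, was at 23.63, 32.9, 12.2 and 29.2 against 152 to 384 (median 287), a difference of -3.43 ± 0.19 (limma adjusted p = 1.28e-05). These 2 genes passed the test also among the mock libraries alone, at -4.32 and -3.50. KAT5, a thiolase of fatty acid breakdown, was at 123, 320, 80.8 and 247 against 354 to 2199 (median 1215), a difference of -2.53 ± 0.18 (limma adjusted p = 0.000118). LUP1, a triterpene synthase, was at 22.5, 19.2, 7.34 and 20.23 against 36.9 to 174 (median 122), a difference of -2.56 ± 0.34 (limma adjusted p = 0.00155). The leucine-rich repeat gene AT1G33670 was at 18.9, 35.6, 14.7 and 11.2 against 79.0 to 183 (median 133), a difference of -2.78 ± 0.21 (limma adjusted p = 0.000118). The 10 genes were chosen among those that lay below both other libraries of each group, so that this order is no finding. The others of the 10 were AT2G22590 (-3.12), AT5G43175 (-2.69), AT1G29270 (-2.05), AT1G60630 (-1.92) and AT5G17040 (-1.68).

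Flavonol genes were lower in the replicate 1 libraries. Of 7 tested, 0 were higher and 6 lower, against 17.8% and 15.8% of all genes, with a median log2 difference of -1.01 and group medians of -1.28 in Col-0 mock, -0.70 in Col-0 BAP, -1.19 in ago10-1 mock and -0.89 in ago10-1 BAP. CHS (AT5G13930), the first enzyme of the pathway, was at 5049, 17350, 4461 and 14359 normalized counts in the replicate 1 libraries, in the same order of groups, and at 8985 to 30072 in the others (median 20116). Both sets were higher with BAP, so that the ranges overlapped across groups, but CHS was below both other libraries in each group, with a difference of -1.01 ± 0.18 (limma adjusted p = 0.00354). F3'H, a hydroxylase of the pathway, was at 209, 468, 188 and 398 against 504 to 1251 (median 818), a difference of -1.42 ± 0.10 (limma adjusted p = 0.000118). CHI was at 206, 723, 181 and 702 against 379 to 2170 (median 1294), a difference of -1.52 ± 0.19 (limma adjusted p = 0.00114). FLS1 (-0.87), UGT78D2 (-0.55) and UGT78D1 (-1.61) were lower as well, whereas MYB12, the factor that activates the pathway in roots, had a difference of -0.02. F3'H (-1.53) and FLS1 (-1.10) were the 2 called among the mock libraries alone, where 0.38% of all genes were called lower.

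Type-A response regulators are direct targets of cytokinin signalling and dampen it. In the replicate 1 libraries, 0 of 10 were higher and 4 lower, against 17.8% and 15.8% of all genes, with group medians of -0.85 in Col-0 mock, 0.14 in Col-0 BAP, -0.24 in ago10-1 mock and 0.01 in ago10-1 BAP. ARR3 was at 666, 969, 607 and 792 normalized counts against 1385 to 2197 (median 1568), without overlap, a difference of -1.15 ± 0.11 (limma adjusted p = 0.000378), and it passed the test among the mock libraries alone (-1.23, limma adjusted p = 0.0113). ARR15 was at 10.6, 24.6, 44.0 and 46.1 against 57.2 to 135 (median 73.6), a difference of -1.49 ± 0.30 (limma adjusted p = 0.00614). ARR4 (-0.43) and ARR17 (-1.43) were the other called genes. Both lost the call without Col-0 mock replicate 1, the list then holding 2, where 2834 rather than 3027 of all genes were lower. ARR4 also lost it without ago10-1 mock replicate 1 (limma adjusted p = 0.0556). ARR17 lost it in most runs with 1 library left out, at limma adjusted p from 0.0507 to 0.168. ARR5, often used as a cytokinin reporter, had a difference of -0.31 (limma adjusted p = 0.243).

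**Figure D4:**
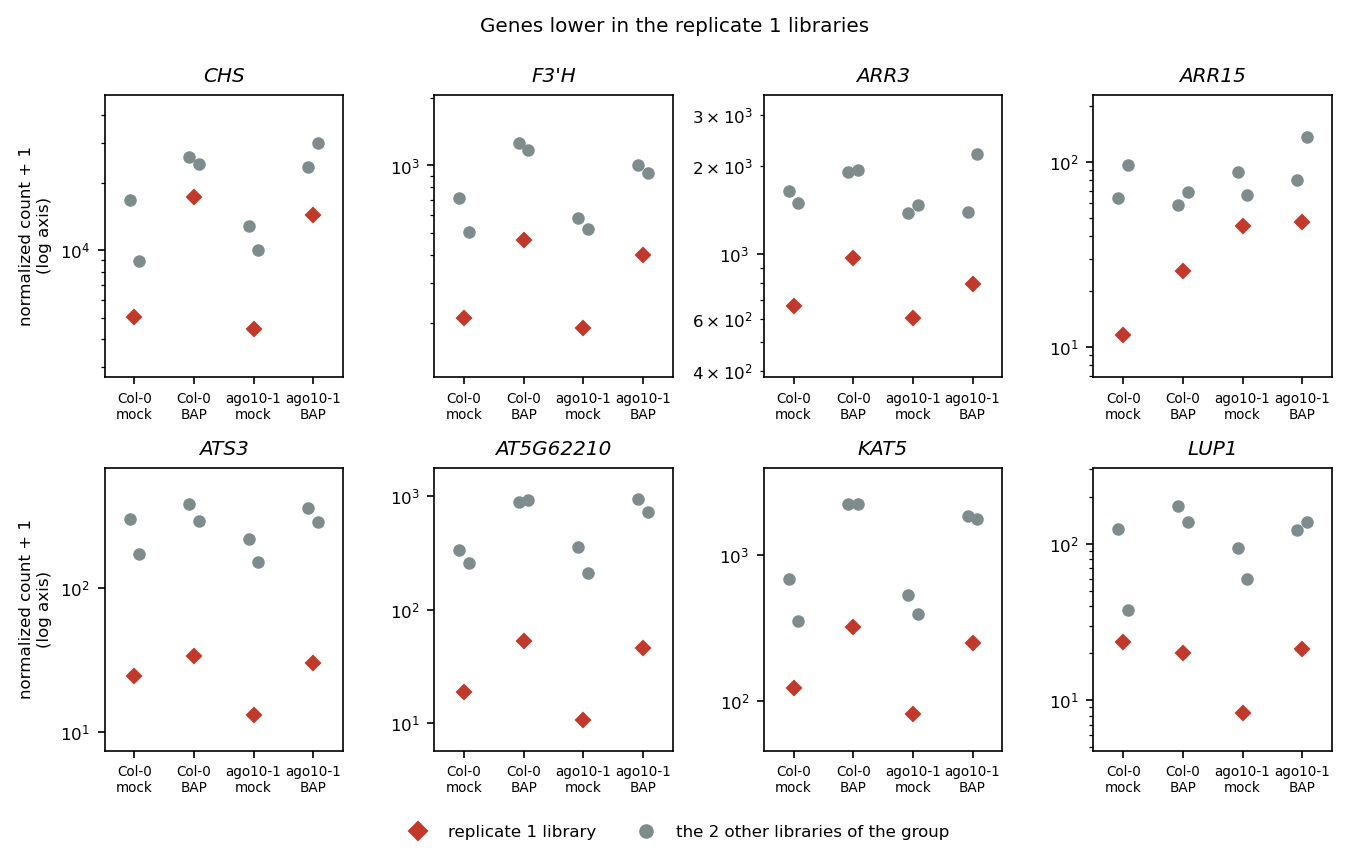
Normalized counts + 1 on a log axis of 8 genes that were lower in the replicate 1 libraries, by group, with a red diamond for the replicate 1 library and grey circles for the 2 others. The diamond lies below both circles of its group in all 32 cases. The choice of genes fixed this for ATS3, AT5G62210, KAT5 and LUP1, and CHS, F3'H, ARR3 and ARR15 were picked as lower members of their lists. In these lists, 5 of 7 flavonol genes and 2 of 10 type-A response regulators lay below both others in all 4 groups. For CHS, the BAP libraries of both sets stand above the mock libraries.

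Genes of stress and handling were examined beside these results. Cold and abscisic acid genes were higher in 5 of 8 cases and lower in 0, against 17.8% and 15.8% of all genes. Among the mock libraries alone, 0 were higher and 1 lower, where 0.432% and 0.38% of all genes were. The lower one was the cold-induced gene KIN2 at -1.44 (limma adjusted p = 0.0464). The desiccation gene RD29A was at 305, 1678, 259 and 1047 in the replicate 1 libraries of Col-0 mock, Col-0 BAP, ago10-1 mock and ago10-1 BAP against 59.0 to 353 (median 257), 1.73 ± 0.34 higher on the log2 scale (limma adjusted p = 0.00523). The mock replicate 1 values of RD29A lay within the range of the others, but above both other libraries of their own group. The count of 5 fell to 3 without either BAP replicate 1 library. Over all genes, 1595 were higher without that of Col-0 and 1972 without that of ago10-1, rather than 3419. Of the wound and jasmonate genes, 4 of 19 were higher and 1 lower, where 17.8% and 15.8% of all genes were. Their summed level overlapped at 4689 to 8470 against 4102 to 8691. The higher ones were the ethylene response factors ERF6 (1.02), ERF104 (1.37), ERF1A (1.28) and ERF5 (0.87), and the lower one was the jasmonate repressor JAZ10 (-1.27, limma adjusted p = 0.00348). Without Col-0 mock library A, 9 of the list were higher and 2 lower, where 3995 and 3636 of all 19206 genes were. ERF5 lost its call without Col-0 BAP replicate 1 (limma adjusted p = 0.151) or ago10-1 BAP replicate 1 (limma adjusted p = 0.079), and in further such runs. Of the heat shock genes, 3 of 6 were higher (17.8% of all genes), led by HSP70 at 879, 1440, 1087 and 1728 against 249 to 626 (median 470), 1.52 ± 0.22 higher (limma adjusted p = 0.00197). HSP90.1, another called heat shock gene, lost its call without ago10-1 mock replicate 1 (limma adjusted p = 0.104) or ago10-1 BAP replicate 1 (limma adjusted p = 0.131). It also did so in further such runs. The part of stress and handling genes in the maturity and clock results was not tested.

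Green tissue genes, which root tips should hold at low levels, had a summed level of 1677 to 3626 normalized counts in the replicate 1 libraries and 634 to 1954 in the others, with 3 of 11 tested genes higher and 0 lower, against 17.8% and 15.8% of all genes. LHCA4, an antenna protein of photosystem I, was at 451, 687, 571 and 654 against 163 to 394 (median 269), 1.14 ± 0.18 higher (limma adjusted p = 0.0023). The marker RBCS1A, the small subunit of Rubisco, was at 4.73, 112, 2.45 and 47.2 against 0 to 41.1 (median 5.51), a difference of 1.63 (limma adjusted p = 0.264). Of the antenna proteins of photosystem II, LHCB1.1 reached 60.2 in Col-0 BAP replicate 1 and LHCB2.1 reached 52.0 in Col-0 BAP replicate 1 and 42.7 in ago10-1 BAP replicate 1, whereas both were at or near 0 in the other libraries. RBCS1A, LHCB1.1 and LHCB2.1 were thus near 0 in both mock replicate 1 libraries. They were highest in the Col-0 BAP replicate 1 library, which also stood farthest from its group. Besides LHCA4, the called genes were PSBO1 and RCA, of which RCA was also a marker set beforehand. The log2 difference of RCA was 0.82 among the mock libraries alone (limma adjusted p = 0.435). It was 1.05 without Col-0 BAP replicate 1 (limma adjusted p = 0.179). The further markers LHCA1 and GAPA were not called. Over all genes, 3419 were called higher, and the number in each run below is given in parentheses. The count of 3 green tissue genes was 1 without Col-0 BAP replicate 1 (1595) or 2 (2769) and without ago10-1 BAP replicate 1 (1972) or 2 (2667). It was also 1 without ago10-1 mock replicate 3 (2998) or Col-0 mock library B (2674), and 5 without Col-0 mock library A (3995). The 2 Col-0 mock libraries that are not replicate 1 share a heading and are called A and B. The part of green tissue in the results was not tested.

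**Figure D5:**
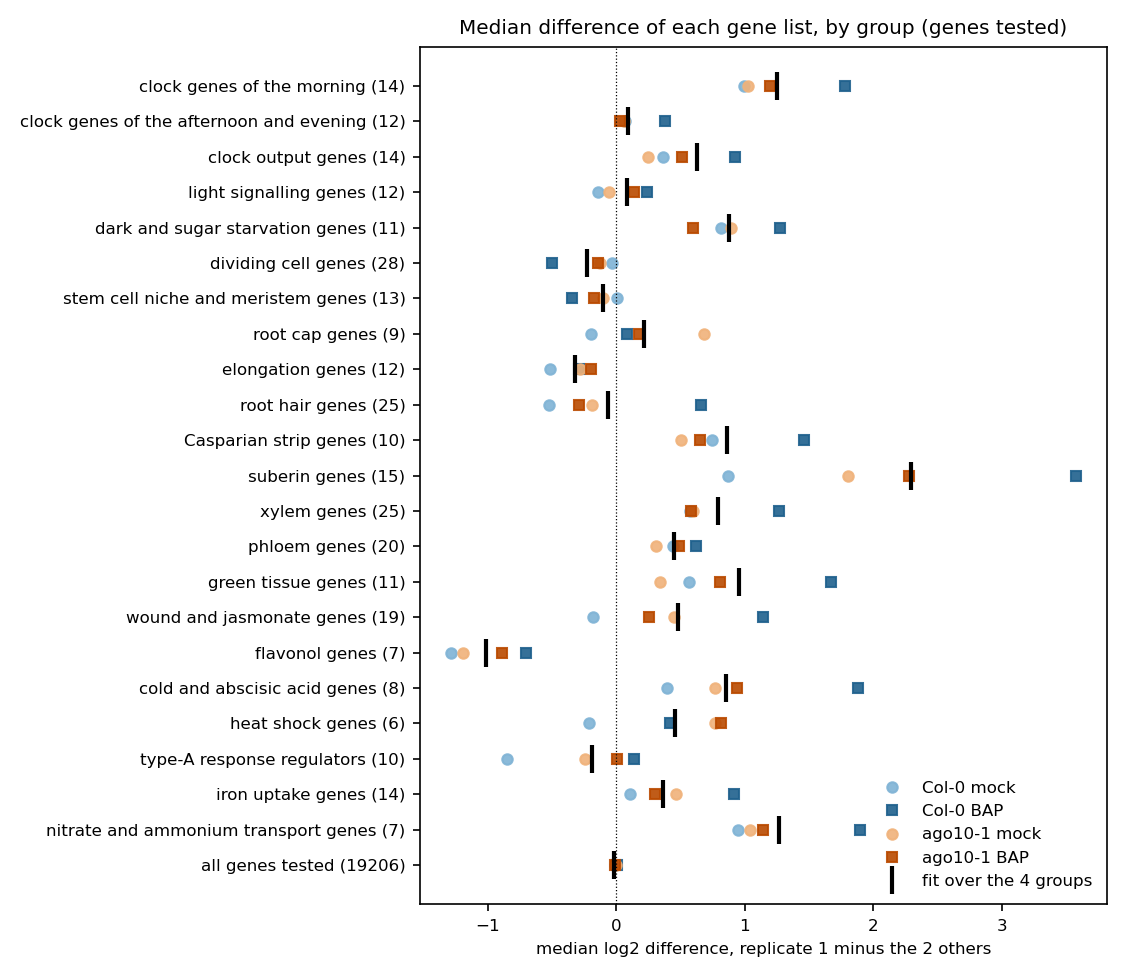
Median log2 difference between the replicate 1 library and the mean of the 2 others for the genes of each list, by group (circles mock, squares BAP) and in the fit over the 4 groups (black bars), with the number of genes tested in parentheses. The clock genes of the morning lie near or above 1 in each group (1.00 to 1.78), the suberin genes spread from 0.87 to 3.58, and the median of all genes lies at -0.02.

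Finally, the genes with the smallest p in each interaction were examined, although no interaction passed the adjusted threshold. The difference between replicate 1 and the other libraries was larger with BAP for the metal transporter gene MTPA2, at log2 differences of 0.37 in Col-0 mock, 2.95 in Col-0 BAP, 0.50 in ago10-1 mock and 2.06 in ago10-1 BAP (limma interaction 2.07 ± 0.33, adjusted p = 0.461). The sulfotransferase SOT17 of glucosinolate synthesis was at -0.93, 0.41, -1.36 and -0.06 in the same order (limma interaction 1.32 ± 0.22, adjusted p = 0.461), and the phosphodiesterase GDPD2 at 0.07, -0.64, -0.45 and -1.45 (limma interaction -0.86 ± 0.14, adjusted p = 0.461). The superoxide dismutase FSD1 was at 3525, 6462, 1877 and 3007 normalized counts in the replicate 1 libraries and at 7081 to 9532 in the others (median 8372), without overlap, and had the larger difference in ago10-1 (limma interaction -0.83 ± 0.16, adjusted p = 0.998). Over all genes, the absolute difference was larger in BAP than in mock libraries for 14321 of 19206 (74.6%). For the suberin genes this held in 15 of 15.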

How the data were processed

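The values were normalized counts deposited by the authors, that is a signal of reads per gene divided by a size factor of the library. The authors aligned reads with STAR to TAIR10, counted them with featureCounts and normalized them with DESeq2. Versions and strandedness are not given in the sources used here, so that overlapping genes are uncertain. Multiplying by the recovered factors gave whole reads for 100.0% of values (tolerance 1e-06). No column was left unused.

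The 4 libraries headed replicate 1 were compared with the 8 others in limma 3.58.1 (R 4.3.3) on log2(value + 1), with the 4 groups as covariate, for genes with a mean of at least 10. Tests were two-sided, and p-values were adjusted by Benjamini-Hochberg over all 19206 genes tested and called under 0.05. edgeR 4.0.16 and DESeq2 1.42.0 on the recovered reads called 6240 and 7117 genes. The model was also run on simulated counts, and no result given here rests on that run. Other filters, pseudocounts and subsets of libraries are given in the closing section. Fold changes on this scale understate those of low genes. Size factors were those of the authors, and values are not divided by gene length, so that levels of different genes are not compared. Principal components, figures and library measures were computed in Python 3.11.15.

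Named genes were the 10 largest differences in each direction among called genes with a mean of at least 50 that lay outside both other libraries in all 4 groups, the core clock genes, at most 5 genes per list and at most 5 per interaction, taken by p, and AGO10. The comparison, the gene lists and the tests were chosen with earlier results of these data known. The lists of iron and of nitrate and ammonium genes, and further list members named in the text, were chosen after their values were seen. 2 of the Col-0 mock columns share 1 heading and are called library A and B. Of 302 tested list genes, 6 have over 50% of their length overlapped by another gene model, namely LAC17, ESB1, KCS2, ADF11, FER1 and COL2. Their counts are uncertain. Of the 343 list genes, 41 were not tested. Gene symbols, positions and upstream sequences came from RefSeq (TAIR10.1), in which 32548 of 32833 genes were found. Counting without unique molecular identifiers means that errors from depth cover counting only.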

Additional observations from a re-analysis of the deposited data

Results flagged for a closer look

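In 6 of the 136 named genes, replicate 1 lay above both other libraries in both groups of 1 condition. In both groups of the other condition, it lay below both. Only named genes were searched, and the share over all genes was not computed. These genes were looked at because of small unadjusted interaction p-values, except AGO10, and no interaction passed an adjusted p of 0.05, so that the differences are descriptions. With BAP against mock, the interaction on the log2 scale was 1.08 for GH9B8, a cellulase-type wall enzyme (group differences -0.08 and -0.37 in mock, 0.97 and 0.73 with BAP). It was 0.79 for SUR1, a lyase of glucosinolate synthesis (-0.21 and -0.48 in mock, 0.53 and 0.35 with BAP), and -0.92 for AGO10 (0.38 and 0.27 in mock, -0.79 and -0.39 with BAP). The limma adjusted p of each was 0.461. For ago10-1 against Col-0, the interaction was -3.73 for QQS, a gene of starch metabolism (1.096 and 0.78 in Col-0, -3.35 and -2.22 in ago10-1). It was 2.32 for AT4G20770 (-1.29 and -2.35 in Col-0, 0.47 and 0.54 in ago10-1) and -1.27 for FLA12, an arabinogalactan protein of secondary walls (0.51 and 0.92 in Col-0, -0.71 and -0.40 in ago10-1). The limma adjusted p of each was 0.998.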

How the results depend on the processing

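No paired analysis was possible because the replicate number is itself the compared label, and because 2 Col-0 mock columns share 1 heading.

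Of 110 named genes that were called, edgeR kept the call of 109 and DESeq2 of 110, and 0 changed direction in any alternative run. Called genes numbered 6430 and 6506 with pseudocounts of 0.5 and 5, 6175 without a filter, 6072 at a mean of at least 50, 6384 with TMM factors, 6553 without covariate and 6982 with additive covariates. Leaving out single libraries gave 2809 to 7631 genes (1595 to 3995 higher and 1214 to 3636 lower), and 88 to 109 of the named calls. The choice of libraries moved the count most: 1 gene in Col-0 libraries only (0 higher, 1 lower), 1615 in ago10-1 libraries only (1298 and 317), 156 in mock libraries only (83 and 73), 4407 in BAP libraries only (2824 and 1583) and, chosen after seeing the data, 241 without both BAP replicate 1 libraries (111 and 130). A further requirement of at least 2-fold, also added later, left 1381 (1186 and 195). For the interactions, DESeq2 called 60 genes with BAP and 2 with genotype, and limma and edgeR 0 in both. The cause of these changes was not tested.

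The genes whose difference changed sign had not passed the test. When single libraries were left out, the log2 difference ran from -0.036 to 0.13 for TOC1, from -0.15 to 0.15 for GI, from -0.061 to 0.047 for LUX, from -0.12 to 0.13 for ELF4 and from -0.31 to 0.087 for AGO10, and the difference in the share of the 10 top genes from -0.104 to 0.0432 percentage points. In ago10-1 libraries only, TOC1 was at -0.063, GI at 0.095, LUX at -0.10, ELF4 at -0.069 and HSP17.6C at 0.010, and in Col-0 libraries only HSP18.2 was at -0.17. In mock libraries only, and likewise without both BAP replicate 1 libraries, TOC1 was at -0.054, GI at 0.23, LUX at -0.029, ELF4 at -0.20, HSP17.6C at 0.064, HSP18.2 at -0.34 and AGO10 at 0.33. ARR5 was at 0.021 in BAP libraries only.

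Each group holds 1 replicate 1 library, so that single-group differences have no replicate check. Replicate 1 libraries were the shallowest of their groups, so that depth limits low values most in these libraries. The part of depth in genes that were near 0 in the others was not tested.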
